A study of Mus musculus with 10 samples.

Results

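The exon junction complex gene Magoh, 5 of its partner genes (Rbm8a, Eif4a3, Casc3, Upf3b and Rnps1) and the zinc finger gene Zfp184 were followed in the mouse hippocampus after status epilepticus (SE), with and without levetiracetam (LEV). These 7 genes were taken by symbol from the 15900 genes of the expression table. Magoh and Zfp184 were chosen by their CAGE values, which were lower with LEV at 6 h after SE, so their levels at that time are given as a description, without a test. The 5 partners were picked because their proteins work with Magoh, and they were tested in every comparison.

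Male ICR mice, 9 to 10 weeks old, were given methyl scopolamine and then pilocarpine (PILO), and SE was taken as the occurrence of 5 generalized convulsive seizures. Diazepam was injected to end SE whether or not LEV followed. Control mice had saline in place of PILO, and the study calls its pre-SE mice control in some places and naive in others. LEV, an anti-epileptic drug that binds the synaptic vesicle protein SV2A, was given by mouth after diazepam, 1 time in the SE + LEV 6 h group and 5 times in the SE + LEV 2 days group. Capped RNA 5′ ends of the whole hippocampus were sequenced by cap analysis of gene expression (CAGE) in 10 libraries of 5 groups with 2 mice each. The groups are pre-SE, then SE 6 h with its drug-treated match SE + LEV 6 h, and likewise SE 2 days with SE + LEV 2 days. With 2 mice a group, p-values measure the spread between these samples only, and the comparisons are not independent, since those at one time share the untreated SE mice and those against pre-SE share the pre-SE mice.

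The exon junction complex is a group of proteins that the spliceosome places on a messenger RNA a short way upstream of each exon junction. Eif4a3, an RNA helicase of the DEAD-box family, grips the RNA, and the heterodimer of Magoh and Rbm8a (also called Y14) locks it there by blocking release. Casc3 (also called MLN51 or Barentsz) joins as the fourth core protein, Rnps1 is a peripheral protein tied to splicing, and Upf3b is the bridge from the complex to nonsense-mediated mRNA decay (NMD), the pathway that removes transcripts with an early stop codon. In neurons the complex is known for marking certain dendritic transcripts, Arc among them, for decay upon translation. Zfp184 belongs to a separate family, the C2H2 zinc finger proteins with a KRAB domain, which as a rule repress transcription through the corepressor Trim28.

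Because CAGE reads begin at transcription starts, the sequences around the starts of the 2 genes chosen for their values at 6 h are shown, followed by those of the partners that had an entry. They are RefSeq promoters on build GRCm38.p6, read on the gene's strand from 250 bases before the annotated start to 10 bases after it, and 4 of the 7 genes were found. Magoh is at chr4:107879505-107879764 (plus strand), Zfp184 at chr13:21944844-21945103 (plus strand), Eif4a3 at chr11:119300034-119300293 (minus strand) and Upf3b at chrX:37110313-37110572 (minus strand). Capitals mark matches to 5 motifs of factors induced by activity or stress, or of housekeeping promoters.
Magoh: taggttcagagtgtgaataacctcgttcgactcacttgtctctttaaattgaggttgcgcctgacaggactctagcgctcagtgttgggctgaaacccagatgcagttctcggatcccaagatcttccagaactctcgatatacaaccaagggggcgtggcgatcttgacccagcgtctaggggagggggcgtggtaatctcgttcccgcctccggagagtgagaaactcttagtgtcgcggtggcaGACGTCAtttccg
Zfp184: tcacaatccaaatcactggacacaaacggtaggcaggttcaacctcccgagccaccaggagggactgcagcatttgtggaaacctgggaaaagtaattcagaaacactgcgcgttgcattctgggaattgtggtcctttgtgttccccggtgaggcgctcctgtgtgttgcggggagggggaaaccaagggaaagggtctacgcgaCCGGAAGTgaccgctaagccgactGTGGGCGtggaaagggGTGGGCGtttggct
Eif4a3: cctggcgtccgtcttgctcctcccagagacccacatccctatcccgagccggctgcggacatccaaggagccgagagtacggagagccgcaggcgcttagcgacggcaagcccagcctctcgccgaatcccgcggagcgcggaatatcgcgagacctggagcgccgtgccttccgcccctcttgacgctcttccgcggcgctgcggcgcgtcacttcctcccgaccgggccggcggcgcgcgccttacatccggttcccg
Upf3b: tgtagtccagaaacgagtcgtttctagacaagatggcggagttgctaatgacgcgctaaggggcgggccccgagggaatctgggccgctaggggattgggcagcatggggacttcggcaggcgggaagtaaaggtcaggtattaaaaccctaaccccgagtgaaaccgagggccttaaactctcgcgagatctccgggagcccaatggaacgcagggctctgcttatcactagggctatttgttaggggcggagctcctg
The motifs, searched on both strands, were the cyclic AMP response element (CRE, TGACGTCA), the CRE without its last base (TGACGTC, which every full CRE also holds), the AP-1 site (TGANTCA), an EGR core (GTGGGCG) and an ETS core (CCGGAAGT). They were chosen after the Magoh and Zfp184 sequences had been read, and the TATA box, the YY1 site and the heat shock element were looked at too and left out, so a match is a description only. In the Magoh promoter the shortened CRE lay across the start itself, from base -3 to base 4 (base 1 being the first transcribed base), on the strand opposite to the gene, and no full CRE was found. In the Zfp184 promoter the EGR core occurred at bases -20 to -14 and again at bases -4 to 3, and the ETS core at bases -44 to -37. Over 27025 mouse promoters of 300 bases, 3.33% held the shortened CRE, 8.04% the EGR core and 4.0% the ETS core. None of the 5 motifs was found in the 300 bases of Eif4a3, of Upf3b or of Sap18, a further exon junction gene described below. Magohb, the paralog of Magoh, held a full CRE at bases 13 to 20, as 1.88% of the 27025 promoters held 1. Whether any match bears on the level of a gene was not tested. The Magoh window held 17 CpG dinucleotides, that of Zfp184 14, that of Upf3b 17 and that of Eif4a3 38, against a median of 6 over all promoters.

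On the files' own build, mm9, Magoh lies at chr4:107552360-107560029 on the plus strand and its longest transcript has 5 exons, with no other gene over it. Zfp184 lies at chr13:22036981-22052648 on the plus strand, with 6 exons, and 3 annotated genes or pseudogenes of the minus strand (Gm11280, Gm11281 and Gm11282) lie over it. Whether strand was used when tags were summed to genes is not given in the sources used here, so tags of Zfp184 and of those 3 could not be told apart. Rbm8a (chr3:96433851-96437702), Eif4a3 (chr11:119149677-119161403), Upf3b (chrX:34631673-34650335) and Rnps1 (chr17:24551620-24562840) had no overlapping gene, and Casc3 (chr11:98666219-98695128) is overlapped by Msl1 and Gm12359.

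Library totals, recovered from the steps in the values, ran from 10540698 to 51710969 tags, a 4.91-fold range. Values are CPM, tag counts scaled to a common library total, and since CAGE counts 1 tag per captured 5′ end, levels of different genes were compared without a length correction. Markers of neurons, astrocytes, microglia, oligodendrocytes and endothelium were present in all 10 libraries, as a hippocampus label requires. Choroid plexus markers (2 of 3 listed) ranged from 7.99 to 3960 summed CPM between the 2 SE 6 h libraries. In bulk tissue, fewer cells of a type and less RNA per cell cannot be told apart.

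Magoh was the highest of the 7 genes in both SE 6 h libraries and within or below its core partners' range in the others. Before SE it measured 45.04 and 52.41 CPM, against 354.42 and 314.5 at SE 6 h, 84.69 and 76.47 at SE + LEV 6 h, 72.97 and 106.03 at SE 2 days, then 65.84 and 62.47 at SE + LEV 2 days. Both SE 6 h libraries stood far above the other 8, and both pre-SE libraries were below all of them. The mean was 48.7 ± 5.21 CPM (SD, n = 2) before SE and 334.0 ± 28.2 (n = 2) at SE 6 h, a 6.86-fold difference of means and a log2 fold change (logFC) of 2.78 on the log2(CPM + 0.1) scale. With LEV at 6 h the mean was 80.6 ± 5.81 (n = 2), 4.15-fold below SE 6 h (logFC -2.05) and 1.65-fold above pre-SE (logFC 0.73). Magoh was selected on these values, which carry no test.

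At 2 days, in libraries that the choice did not use, Magoh averaged 89.5 ± 23.4 CPM (SD, n = 2) without LEV and 64.2 ± 2.38 (n = 2) with it. The tests at 2 days are still not fully apart from that choice, since the SE 6 h and SE + LEV 6 h libraries enter the spread shared by all groups. The SE 2 days libraries were both above pre-SE, with a logFC of 0.86 ± 0.23 (SE of the estimate) and an adjusted p of 0.06 (limma with Benjamini-Hochberg adjustment over 15851 genes), which did not pass the threshold of 0.05. Of all genes tested, 5.66% passed in that comparison, with 5.07% higher, and 26.3% had all SE 2 days values above pre-SE. The call turned on single libraries and on the tool: Magoh passed without SE 2 days replicate 1 (adjusted p 0.041), with DESeq2 on the recovered tags (logFC 0.91, adjusted p 0.022), and in limma with replicate number as a block whose numbers were crossed in SE + LEV 2 days, a setting chosen after the data were seen (adjusted p 0.046), while without SE 2 days replicate 2 the logFC was 0.59 (limma, adjusted p 0.46). Over all alternatives the adjusted p ran from 0.022 to 0.46.

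With LEV at 2 days, both Magoh values lay below both SE 2 days values, as 12.2% of all genes did, but the difference was not called (logFC -0.46 ± 0.23, 95% interval -0.97 to 0.06, limma adjusted p 1.0, unadjusted p 0.077). Against pre-SE, the SE + LEV 2 days libraries gave a logFC of 0.4 ± 0.23 (limma adjusted p 0.65). Ordered by mean, Magoh went from SE 6 h to SE 2 days, SE + LEV 6 h, SE + LEV 2 days and pre-SE, and of these neighbours only SE 2 days and SE + LEV 6 h overlapped.

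**Figure D1:**
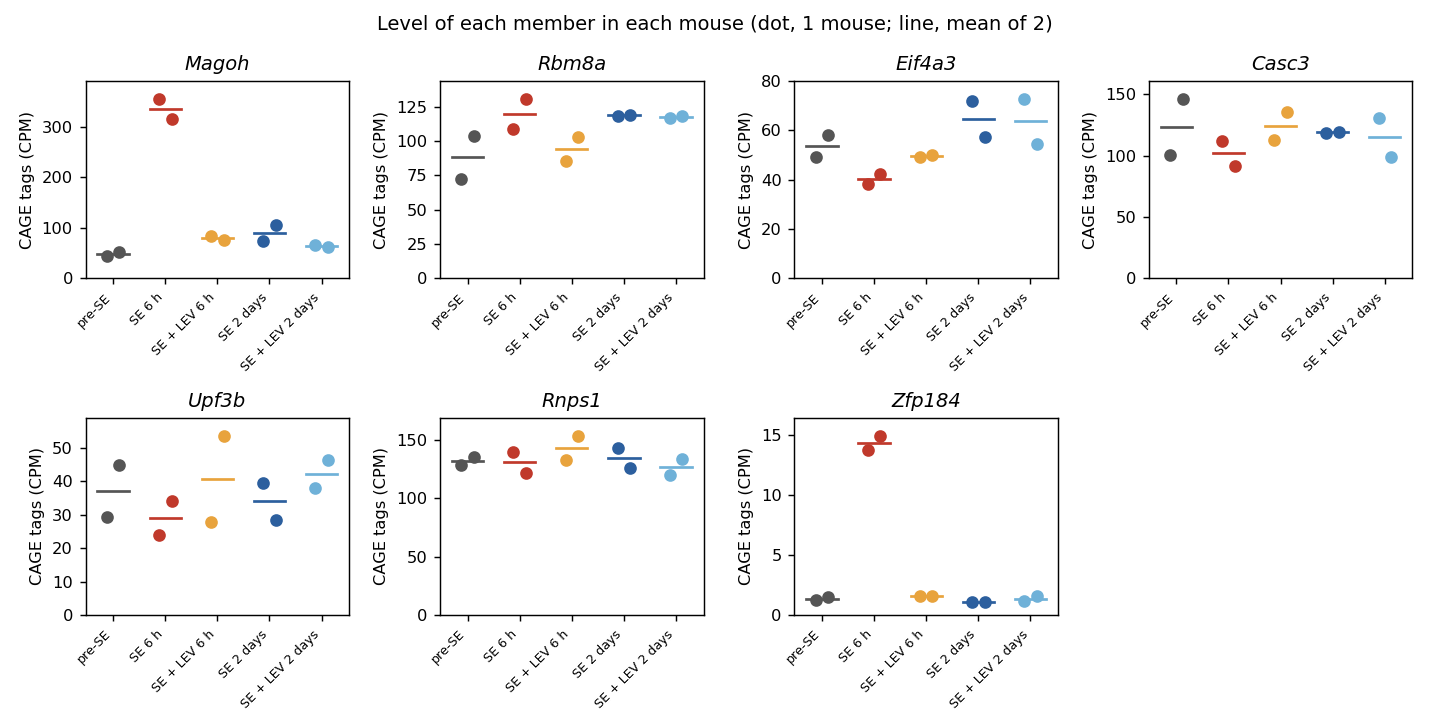
CAGE level in CPM (vertical axes, each from 0) of the 7 genes in the 10 libraries, by group; each dot is 1 library and each line the mean of 2. Magoh and Zfp184 are high in both SE 6 h libraries (354.42 and 314.5 CPM, 13.73 and 14.94 CPM), while the libraries of the 5 partners stay within a 2.23-fold range.

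Zfp184 was a low gene that was seen at a high level in a single group. It measured 1.24 and 1.47 CPM before SE, 13.73 and 14.94 at SE 6 h, 1.59 and 1.61 at SE + LEV 6 h, 1.06 and 1.1 at SE 2 days, and 1.14 and 1.6 at SE + LEV 2 days. The 8 libraries outside SE 6 h thus held 1.06 to 1.61 CPM. The SE 6 h mean of 14.3 ± 0.856 CPM (SD, n = 2) was 10.6-fold the pre-SE mean of 1.35 ± 0.163 (logFC 3.31) and 8.96-fold the SE + LEV 6 h mean of 1.6 ± 0.0141 (logFC -3.08), again as a description.

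These levels rest on few tags outside SE 6 h. The 17 tags of SE + LEV 6 h replicate 2 give a 95% exact Poisson interval of 0.94 to 2.58 CPM, and the 218 tags of SE 6 h replicate 2 one of 13.0 to 17.1 CPM, both for counting error only. At 2 days, Zfp184 was not called in any of the 3 comparisons whose differences hold no library of the choice, although their shared spread does. The logFC was -0.3 ± 0.35 for SE 2 days against pre-SE (limma adjusted p 0.71), 0.3 ± 0.35 for LEV at 2 days (limma adjusted p 1.0) and 0.0 ± 0.35 for SE + LEV 2 days against pre-SE (limma adjusted p 1.0). Unlike Magoh, Zfp184 at SE 2 days lay below both pre-SE libraries, as 25.6% of all genes did.

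Rbm8a, the direct partner of Magoh in the heterodimer, measured 72.67 and 103.42 CPM before SE, 108.44 and 130.6 at SE 6 h, 85.26 and 102.65 at SE + LEV 6 h, 118.38 and 118.78 at SE 2 days, and 116.48 and 118.37 at SE + LEV 2 days. All 6 libraries of SE 6 h, SE 2 days and SE + LEV 2 days were above both pre-SE libraries, by a mean of 1.36-fold at SE 6 h. Such a position was held by 18.6% of all genes at SE 6 h, 26.3% at SE 2 days and 22.6% at SE + LEV 2 days. None of these differences was called, with a logFC of 0.46 ± 0.23 at SE 6 h (95% interval -0.06 to 0.97, limma adjusted p 0.33), 0.45 ± 0.23 at SE 2 days (limma adjusted p 0.32) and -0.35 ± 0.23 for LEV at 6 h (limma adjusted p 1.0).

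Eif4a3, the RNA-gripping helicase, had its lowest values at SE 6 h, 38.33 and 42.28 CPM, against 49.18 and 58.01 before SE and 49.31 and 50.09 at SE + LEV 6 h. At 2 days it measured 71.78 and 57.31 CPM without LEV and 72.77 and 54.59 with it. The SE 6 h libraries lay below all others, a position opposite to that of Magoh and shared with 31.3% of all genes against pre-SE, but no comparison was called: the logFC was -0.41 ± 0.23 against pre-SE (95% interval -0.92 to 0.11, limma adjusted p 0.39) and 0.3 ± 0.23 for LEV at 6 h (limma adjusted p 1.0). From SE 6 h to SE 2 days the logFC was 0.67 ± 0.23, which had an unadjusted p of 0.016 and an adjusted p of 0.15 in limma.

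Casc3, the fourth core gene, ranged over all libraries from 91.3 to 146.0 CPM, with pre-SE replicate 2 the highest and SE 6 h replicate 2 the lowest. Its SE 6 h values of 112.19 and 91.27 CPM overlapped the pre-SE values of 100.12 and 146.08 (logFC -0.26 ± 0.25, limma adjusted p 0.63). The other Casc3 values were 112.54 and 135.1 CPM at SE + LEV 6 h, 118.38 and 119.55 at SE 2 days, and 130.81 and 99.23 at SE + LEV 2 days. Every neighbouring pair of groups in its order of means overlapped.

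Upf3b, the link to NMD, varied most between libraries of one group, with 27.81 and 53.6 CPM at SE + LEV 6 h. It measured 29.38 and 44.83 CPM before SE, 23.99 and 33.99 at SE 6 h, 39.6 and 28.28 at SE 2 days, and 37.9 and 46.45 at SE + LEV 2 days, and no group stood apart from its neighbour. Its logFC at SE 6 h was -0.34 with a 95% interval of -1.15 to 0.46 (limma adjusted p 0.66), so that differences of up to that size could not be seen.

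Rnps1, the splicing-linked peripheral protein, was the steadiest of the 7, from 120.0 to 154.0 CPM, a 1.28-fold range over all 10 libraries. Its values were 128.16 and 135.25 CPM before SE, 140.03 and 121.69 at SE 6 h, 132.61 and 153.6 at SE + LEV 6 h, 142.97 and 126.04 at SE 2 days, and 119.81 and 133.41 at SE + LEV 2 days. The logFC at SE 6 h was -0.01 with a 95% interval of -0.46 to 0.44, and its sign turned when libraries were rescaled by the median of ratios (0.12).

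Of the 5 partners, 0 were called in each of the 8 comparisons by limma, edgeR and DESeq2, and unadjusted p-values under 0.05 occurred for 0 of 5 in every comparison but SE 2 days against SE 6 h, where Eif4a3 was the 1. Of all genes tested, 2.96% were called at SE 6 h against pre-SE, 0.0126% with LEV at 6 h, 5.66% at SE 2 days and 0.0% with LEV at 2 days, so 0 of 5 is close to the background in each. In the other comparisons the share called was 0.322% for SE + LEV 6 h and 2.85% for SE + LEV 2 days against pre-SE, 4.25% for SE 2 days against SE 6 h and 0.0% for the LEV effect between times. Groups did not overlap for 2 of 5 partners at SE 6 h (49.9% of all genes), 3 of 5 with LEV at 6 h (29.5%), 1 of 5 at SE 2 days (52.0%) and 1 of 5 with LEV at 2 days (27.4%). The partners' logFC ran from -0.41 to 0.46 at SE 6 h and from -0.35 to 0.43 with LEV at 6 h, and their 95% intervals spanned -1.15 to 0.97 and -0.86 to 1.24. The median logFC of all genes at SE 6 h was -0.13, and rescaling by the median of ratios moved it to 0.00.

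**Figure D2:**
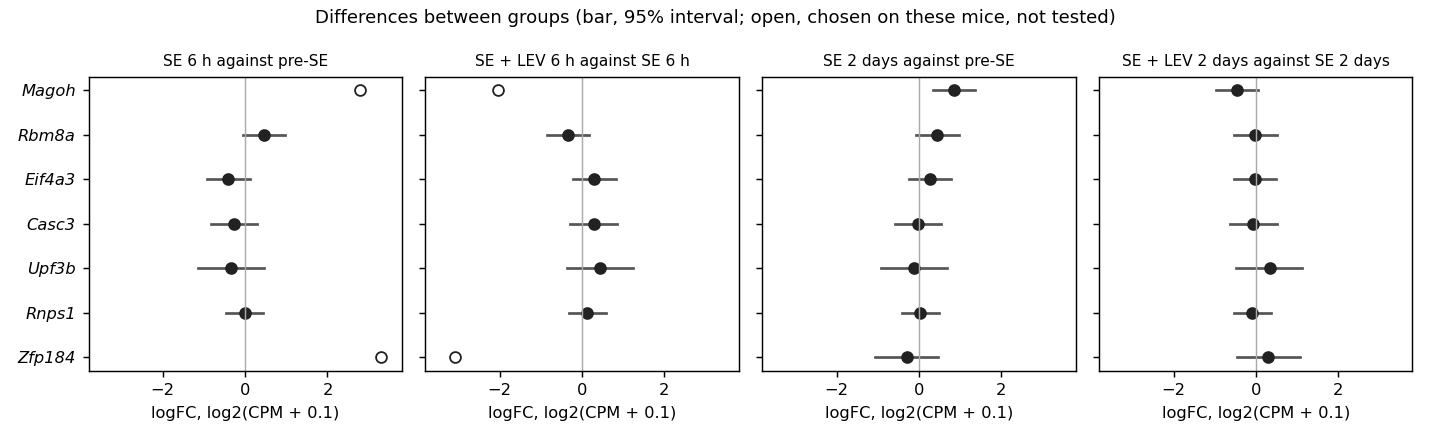
logFC on the log2(CPM + 0.1) scale (horizontal axes) of the 7 genes in the 4 main comparisons; bars are 95% intervals from limma, and open circles without bars are the values that chose Magoh and Zfp184. The intervals of the 5 partners include 0 in all 4 panels, and that of Magoh at SE 2 days, 0.34 to 1.37, does not although its adjusted p was 0.06.

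Set against its partners in the same library, Magoh was a minor core transcript before SE and the major one at SE 6 h. The ratio of Magoh to Rbm8a CPM was 0.62 and 0.507 before SE, 3.27 and 2.41 at SE 6 h, 0.993 and 0.745 at SE + LEV 6 h, 0.616 and 0.893 at SE 2 days, and 0.565 and 0.528 at SE + LEV 2 days. Magoh made up 15.7% ± 1.63 (SD, n = 2) of the summed CPM of the 4 core genes before SE, 56.1% ± 2.43 at SE 6 h, 23.3% ± 3.21 at SE + LEV 6 h, 22.8% ± 5.14 at SE 2 days and 17.9% ± 1.14 at SE + LEV 2 days. The 6 h values carry the choice of Magoh with them. The summed CPM of the 5 partners was 433.5 ± 76.4 before SE and 421.4 ± 2.23 at SE 6 h.

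**Figure D3:**
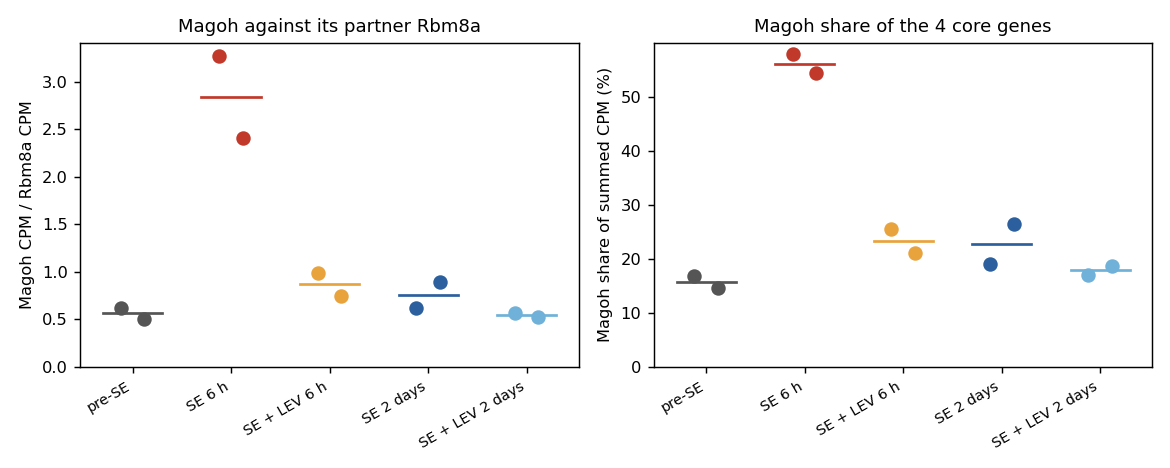
Ratio of Magoh to Rbm8a CPM (left) and share of Magoh in the summed CPM of Magoh, Rbm8a, Eif4a3 and Casc3 in percent (right), by group; dots are libraries, lines means of 2, and both axes start at 0. The SE 6 h libraries, at 57.8% and 54.4%, are the 2 in which Magoh exceeds the other core genes together.

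Magohb, the paralog whose protein is nearly identical to Magoh, was a lower gene that stayed within 10.2 to 21.3 CPM. It measured 12.76 and 10.89 CPM before SE, 12.99 and 21.31 at SE 6 h, and 11.7 and 18.22 at SE + LEV 6 h (logFC 0.49 ± 0.36 for SE 6 h, limma adjusted p 0.5). Magoh was 80.4% ± 3.45 (SD, n = 2) of the pair before SE and 95.1% ± 1.99 at SE 6 h. How tags that match several places were assigned is not given in the sources used here, so a division of tags between close copies limits both values.

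Upf3a, the paralog of Upf3b and a weaker NMD factor, had 30.21 and 48.89 CPM before SE, 22.42 and 28.5 at SE 6 h, and 58.68 and 56.22 at SE 2 days. It lay below pre-SE at SE 6 h (logFC -0.6 ± 0.36, limma adjusted p 0.41) and above it at SE 2 days (logFC 0.58 ± 0.36, limma adjusted p 0.43), neither of them called. The helicase paralogs of Eif4a3 act in translation initiation: Eif4a1 was 119.12 and 106.11 CPM before SE and 176.31 and 210.56 at SE 6 h (logFC 0.78 ± 0.23, limma adjusted p 0.12), and Eif4a2 had a logFC of -0.08 ± 0.38. Eif4a1 passed under DESeq2 (adjusted p 0.0063) and after rescaling (limma adjusted p 0.047).

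Among the other exon junction and NMD genes, 33 were listed and 31 were found by symbol; Smg8 and Smg9 were not analysed here. At SE 6 h, 1 of 31 rose (Sap18) and 0 fell, or 5 and 1 at an unadjusted p under 0.05, with a median logFC of 0.08 beside -0.13 over all genes, of which 2.76% were called higher. At an unadjusted p under 0.05, 1460 of all 15851 genes were higher and 1349 lower. With LEV at 6 h, at SE 2 days and with LEV at 2 days, limma called 0 of 31, with 1, 0 and 0 at an unadjusted p under 0.05 and medians of 0.02, 0.02 and 0.0. DESeq2 called 3 at SE 6 h, with Sap18 and Cwc22 among them, 1 with LEV at 6 h and 1 at SE 2 days (Sap18 both times), and 0 with LEV at 2 days, and edgeR called the same number as limma in each. Of the NMD factors themselves, 0 of 14 found were called by limma, among them Upf1, the central helicase (logFC -0.02 ± 0.31 at SE 6 h), and Nbas (-0.2 ± 0.29). Of the 6 mRNA export genes none was called either, with logFC at SE 6 h between -0.56 and 0.51.

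Sap18 is a small subunit that joins Rnps1 in the ASAP and PSAP complexes and is also found with the Sin3 histone deacetylase. It correlated with Magoh over the 10 libraries (Pearson r = 0.912, rank 64), which share their groups, so r is a description. It measured 18.52 and 18.99 CPM before SE, 181.06 and 473.67 at SE 6 h, 54.29 and 53.51 at SE + LEV 6 h, 22.73 and 125.76 at SE 2 days, and 17.12 and 32.61 at SE + LEV 2 days. The SE 6 h libraries were the highest 2 of 10 but lay far apart, as did those of SE 2 days. Between the 2 SE 6 h libraries Magoh went the other way (354.42 and 314.5 CPM). Sap18 rose at SE 6 h (logFC 3.96 ± 0.69, limma adjusted p 0.014, 8.7e-10 to 0.14 over the alternatives), and its difference with LEV at 6 h was not called (logFC -2.44 ± 0.69, limma adjusted p 0.63, 0.0056 to 1.0 over the alternatives). The call at SE 6 h was lost without pre-SE replicate 1 (limma adjusted p 0.081), without pre-SE replicate 2 (limma adjusted p 0.073) and without SE 6 h replicate 2 (limma adjusted p 0.14). Sap18 (mm9 chr14:58417017-58423817, plus strand) has 7 annotated transcripts and overlaps a miRNA entry.

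Cwc22, which delivers Eif4a3 to the spliceosome, was named after its values were seen. It ranged from 29.04 to 387.95 CPM, with 189.48 and 29.04 in the 2 SE 2 days libraries and its highest values, 387.95 and 297.42, at SE + LEV 6 h. Its logFC was 1.88 ± 0.7 at SE 6 h (limma adjusted p 0.2) and 1.01 ± 0.7 with LEV at 6 h (limma adjusted p 1.0), and the first passed without either SE 2 days library (limma adjusted p 0.04 each) and under DESeq2 (adjusted p 0.022).

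**Figure D4:**
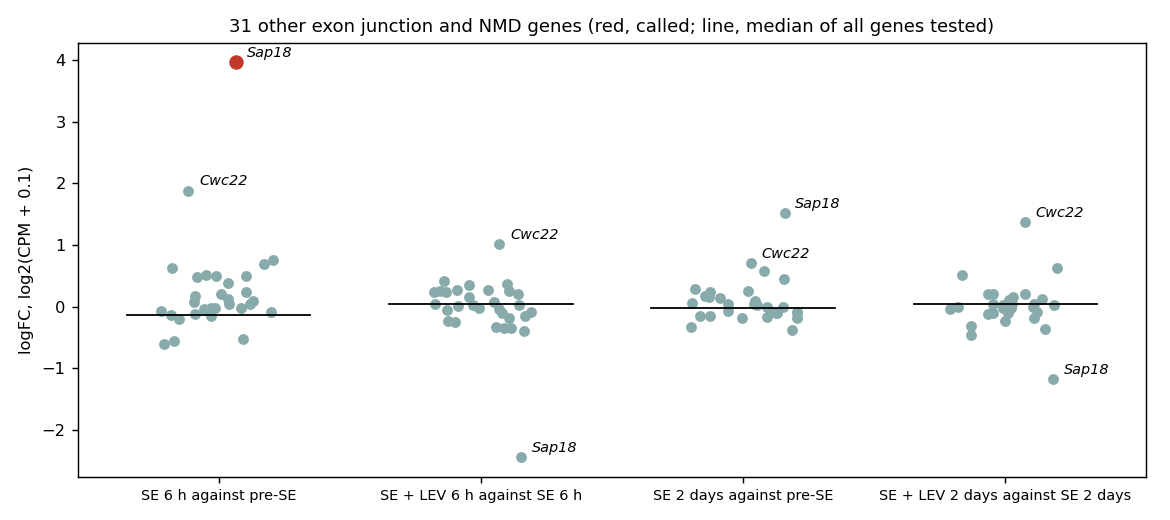
logFC on the log2(CPM + 0.1) scale (vertical axis) of 31 exon junction and NMD genes other than the 7 in the 4 main comparisons; each dot is a gene, red marks a call by limma and black lines the median of all genes tested. Sap18 at SE 6 h (3.96) is the 1 red dot, and Cwc22 has the next highest logFC there (1.88).

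Transcripts known as NMD targets gave 3 of 6 higher at SE 6 h: Gadd45b, a stress-induced regulator of growth and DNA demethylation (logFC 4.06 ± 0.36, limma adjusted p 0.0014), Arc, the dendritic plasticity gene (logFC 4.03 ± 0.52, limma adjusted p 0.0037), and Snhg1, a snoRNA host (logFC 1.81 ± 0.37, limma adjusted p 0.029). Of all genes, 2.76% were called higher at SE 6 h and 5.07% at SE 2 days, where Gadd45b and Arc rose. The list's median logFC was 1.25 at SE 6 h and 0.53 at SE 2 days, beside -0.13 and -0.03 over all genes. Arc measured 58.15 and 107.6 CPM before SE, 2128.84 and 789.61 at SE 6 h and 307.01 and 259.76 at SE + LEV 6 h. With LEV limma called 0 of 6 at either time, with 3 of 6 at an unadjusted p under 0.05 at each, as were 726 of all 15851 genes at 6 h and 428 at 2 days. The logFC of Arc with LEV was -2.2 ± 0.52 at 6 h (limma adjusted p 0.36, 0.0013 to 1.0 over the alternatives) and -2.16 ± 0.52 at 2 days (limma adjusted p 1.0, 0.015 to 1.0 over the alternatives). Arc and Gadd45b are also known as activity-induced genes, so their levels do not measure decay.

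For Zfp184, the family of 284 other genes named Zfp with a number was compared. At SE 6 h, 4 of 284 rose and 0 fell, while 2.76% of all genes were called higher, and the family's median logFC was -0.33 beside -0.13 for all genes. At an unadjusted p under 0.05, 9 of 284 were higher and 31 lower, against 1460 and 1349 of all 15851 genes. Wholly above pre-SE lay 23 and wholly below it 139, against 18.6% and 31.3% of all genes. The 4 were Zfp36 (3.4 ± 0.64, limma adjusted p 0.02), an mRNA-decay protein of another finger class and an early-response gene, Zfp516 (2.73 ± 0.46, limma adjusted p 0.012), Zfp52 (1.81 ± 0.37, limma adjusted p 0.032) and Zfp655 (1.22 ± 0.24, limma adjusted p 0.024). With LEV limma called 0 of 284 at 6 h and at 2 days, with 2 and 1 at an unadjusted p under 0.05, and the logFC at 6 h ran from -1.07 to 1.39. At SE 2 days 2 rose, Zfp36 (3.5, limma adjusted p 0.011) and Zfp703 (1.14, limma adjusted p 0.047). Of the KRAB corepressors, 0 of 5 were called by limma in any of the 4 main comparisons and 0 had an unadjusted p under 0.05, with Trim28 at 88.05 and 80.12 CPM before SE and 75.18 and 72.36 at SE 6 h (logFC -0.19 ± 0.2).

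Genes with the profile most like Magoh were found by the Pearson correlation of log2(CPM + 0.1) over the 10 libraries, which share their groups, so r is a description. The 5 nearest were Slco5a1 (r = 0.977), Sbds (0.972), Arpp19 (0.969), 2310075C17Rik (0.967) and Tmem11 (0.963). Sbds, a ribosome maturation factor, measured 62.11 and 71.16 CPM before SE, 143.18 and 150.6 at SE 6 h, and 98.82 and 91.27 at SE + LEV 6 h. Arpp19, a phosphatase 2A inhibitor of the endosulfine family, measured 131.88 and 120.28 before SE, 329.43 and 308.68 at SE 6 h, and 191.35 and 185.76 at SE + LEV 6 h. Slco5a1 and 2310075C17Rik were near the floor of 3 tags before SE. Zfp184 ranked 44 (r = 0.923) and Sap18 64 (0.912), while the partners stood at 0.452 for Rbm8a, -0.082 for Rnps1, -0.39 for Casc3, -0.49 for Upf3b and -0.669 for Eif4a3. Magoh and Zfp184 were both chosen for lower values with LEV at 6 h and the partners were not, so their likeness is not apart from that choice.

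The 5 genes most like Zfp184 were D030047H15Rik (r = 0.983), Ptger1 (0.981), Tslp (0.981), 2610037D02Rik (0.976) and Gm17379 (0.972). All 5 held 0.21 to 0.9 CPM at SE 6 h, on 3 to 28 tags, and at most 0.09 CPM in every other library. Tslp, a cytokine, measured 0.67 and 0.82 CPM at SE 6 h and 0.03 and 0.09 at SE + LEV 6 h. Ptger1 is a receptor for prostaglandin E2. Such profiles rest on single tags outside SE 6 h.

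**Figure D5:**
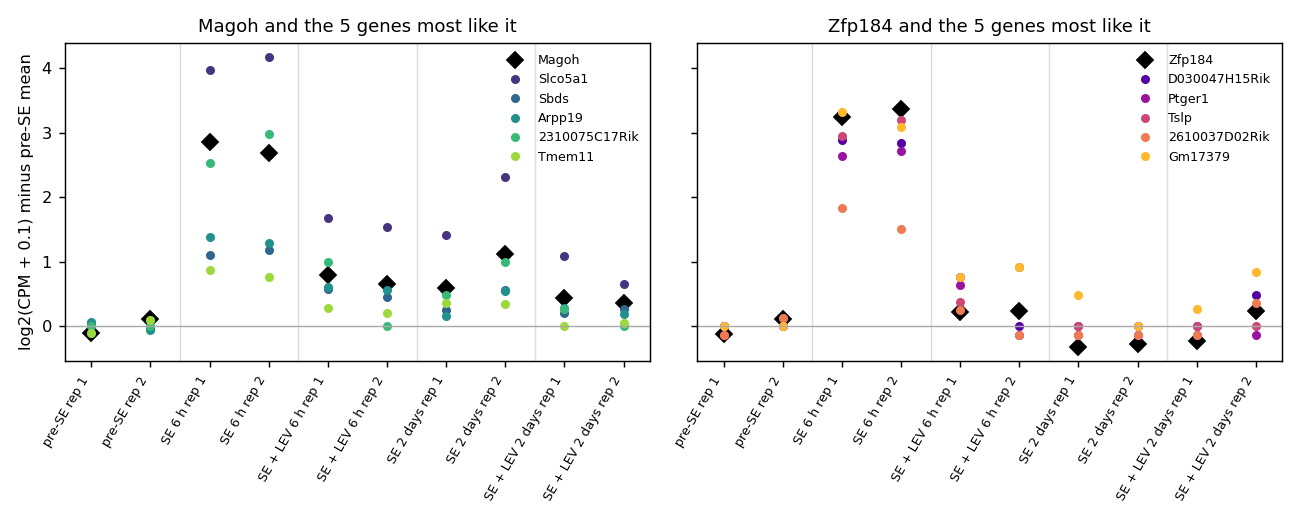
Difference of log2(CPM + 0.1) from the pre-SE mean (vertical axis) in the 10 libraries for Magoh (left) and Zfp184 (right), as black diamonds, and for the 5 genes most like each (coloured dots). Both SE 6 h libraries are the highest for every gene shown, and the 2-day values of Magoh are above 0 while those of Zfp184 are near 0.

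The genes beside Magoh on the chromosome did not share its profile. 0610037L13Rik, which begins 2389 bases past the end of Magoh, kept to 30.42 to 42.0 CPM (logFC 0.1 ± 0.25 at SE 6 h, limma adjusted p 0.86), and Lrp8, a reelin receptor gene that ends 2915 bases before it, measured 36.14 and 9.98 CPM before SE and 42.08 and 14.59 at SE 6 h (logFC 0.38 ± 0.7). The nearest genes in the table to Zfp184 are 2 histone genes, Hist1h4n at 112916 bases and Hist1h2ah at 74334 bases, with logFC of 0.18 ± 0.45 and -1.09 ± 0.63 at SE 6 h, neither called. At SE 2 days Hist1h2ah rose (logFC 3.76 ± 0.63, limma adjusted p 0.0071). Over the alternatives its logFC ran from 3.29 to 4.23, and it was not called in all of them.

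Cell type markers moved between the same groups. The summed CPM of 5 neuronal markers was 8280 to 8360 before SE and 4980 to 7130 at SE 6 h, of 5 microglial markers 148.0 to 156.0 and 68.6 to 79.1, and of 3 endothelial markers 32.0 to 34.6 and 66.5 to 81.5. With LEV at 6 h the same sums were 5320 to 7550, 95.4 to 120.0 and 48.8 to 69.2. At SE 2 days, microglial markers were at 274.0 to 289.0 and neuronal markers at 4040 to 5440. The logFC of their members ran from -0.93 to 2.28 for microglia and from -1.29 to -0.21 for neurons. Of the 5 neuronal markers limma called 0 at SE 6 h and at SE 2 days, where it called 2.96% and 5.66% of all genes. Of the 5 microglial markers it called P2ry12 and Tmem119 lower at SE 6 h, and Aif1 alone, higher, at SE 2 days. Of the 3 endothelial markers it called Cdh5 higher at SE 6 h and 0 at SE 2 days. Of the 4 astrocyte markers it called 0 at SE 6 h, and Gfap and Aqp4 higher at SE 2 days. The sum of 4 astrocyte markers was then 3180 to 4620, against 1760 to 1850 before SE, although the logFC of its members ran from -0.93 to 3.6. The sum of 3 oligodendrocyte markers was 1430 to 2190 at SE 2 days, against 4010 to 4600 before SE, with all 3 below pre-SE in both mice and 0 called by limma (3 at an unadjusted p under 0.05). Of all genes, 25.6% lay wholly below pre-SE there, and 1155 of 15851 were lower at an unadjusted p under 0.05. None of these lists was at 0 in any library, and their part in the Magoh and Zfp184 levels was not tested.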

How the data were processed

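CAGE libraries of whole hippocampus from 10 mice were used, 2 in each of 5 groups named by the sample titles. Per the labels and the study's methods, the authors mapped tags to mm9 with BWA 0.7.17 and HISAT2 2.0.5, clustered them with RECLU (bedtools 2.12.0), used edgeR 3.22.5 and deposited CPM values, 1 per gene and mouse. How clusters were summed to genes, how tags with several matches were treated and whether strand was used is not given in the sources used here, and 0 columns of values were left out.

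log2(CPM + 0.1) was fitted with limma 3.58.1 in R 4.3.3, with all 10 libraries, 5 group means, a mean-variance trend and two-sided moderated tests, over the 15851 genes that reached 0.1 CPM in 2 or more libraries. P-values were adjusted by Benjamini-Hochberg over all of them, and 0.05 was the threshold for a call. Since the unit is CPM, count tests (edgeR 4.0.16 quasi-likelihood and DESeq2 1.42.0) were alternatives only. They used tag counts recovered by searching, for each library, for the total that makes every value a whole number of tags within rounding to 2 decimals. Only 3 libraries show these steps directly, and the totals of the other 7 rest on the search, in which 100.0% of values came out whole. On simulated data 10 of 10 totals were found. With 200 of 15791 genes changed for SE 2 days against pre-SE, limma recovered 71% of those changed by 2 and 2% of those changed by 1 on the log2 scale, with 5 false calls, so smaller differences can be missed.

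The 7 genes, the gene lists and the rule for named genes were chosen with earlier results of these data known. The rule names all 7 genes, the called genes of each list (up to 5 per main comparison, otherwise the 3 with the largest difference with LEV at 6 h), 4 paralogs, the 5 genes most like Magoh and Zfp184, and the genes beside or over them. Cell type marker lists were described by their sums. Symbols missing from the table, 2 of 33 in the exon junction and NMD list among them, were not analysed here. 1 gene that falls under the rule is not reported here. Other alternatives were pseudocounts of 0.01 and 1, no filter, a filter of 1 CPM, median-of-ratios rescaling, a replicate block and each mouse left out. A block with crossed numbers was added after the data were seen. Tabulation and plotting used Python 3.11.15, pandas 2.3.3, SciPy 1.17.1 and matplotlib 3.10.9.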

Additional observations from a re-analysis of the deposited data

Results flagged for a closer look

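The estimates for Zfp184 had opposite signs at the 2 times. With LEV its logFC was -3.08 at 6 h and 0.3 at 2 days, and against pre-SE it was 3.31 at SE 6 h and -0.3 at SE 2 days. The 2-day values were not called (limma adjusted p 1.0 with LEV and 0.71 against pre-SE), Zfp184 was chosen by its 6 h values, and the difference between times was not tested. The estimates for Upf3a against pre-SE were -0.6 at SE 6 h and 0.58 at SE 2 days, neither called. Their difference, SE 2 days against SE 6 h, was a logFC of 1.18 ± 0.36, with an unadjusted p of 0.008 and an adjusted p of 0.1 in limma (0.04 to 0.32 over the alternatives), higher in both SE 2 days mice.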

How the results depend on the processing

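Of 228 alternative values of the counts of called genes, 216 stayed within 1.5 times the reported count. The reported counts were 0 except that of the exon junction and NMD list at SE 6 h. For the others, staying within that bound only meant staying at 0. At SE 6 h the exon junction and NMD list gave 3 calls with DESeq2 and 0 to 2 when a mouse was left out. With LEV at 6 h DESeq2 called 1 of that list, and at SE 2 days 1, with 0 to 1 when a mouse was left out. Of the 7 genes, Magoh alone was called at SE 2 days in some settings, giving 1 call with the crossed replicate block, 1 with DESeq2 and 0 to 1 when a mouse was left out. Leaving out a mouse leaves a lone one, assumed to vary like the other groups. Same-numbered mice are different animals, so the numbers do not pair them by animal. Their deviations correlated between -0.44 and 0.34 over pairs of groups, and whether the numbers carry any other shared factor was not tested. The replicate block gave 0 calls among the 7 genes at SE 2 days (Magoh logFC 0.86, limma adjusted p 0.077) and the same Sap18 call at SE 6 h. With the numbers of SE + LEV 2 days crossed, 1057 genes were called higher and 306 lower at SE 2 days. Over all genes, limma against DESeq2 called 437 and 1008 higher and 32 and 99 lower at SE 6 h, 0 and 6 higher and 2 and 69 lower with LEV at 6 h, 803 and 1260 higher and 94 and 347 lower at SE 2 days, and 0 and 4 lower with LEV at 2 days, where 428 genes had an unadjusted p under 0.05 in limma and edgeR called 0. Signs of single genes turned in 45 values of 21 results, all among values not called. By rescaling, edgeR and DESeq2 in turn, Rnps1 at SE 6 h became 0.12 in all 3, Rnps1 from SE 6 h to SE 2 days -0.06, -0.06 and -0.07, and Zfp184 at SE + LEV 2 days against pre-SE -0.02, -0.02 and -0.04, while Casc3 at SE 2 days became 0.0 by rescaling. With a mouse left out, logFC at SE 6 h ran from -0.53 to 0.02 for Casc3 and -0.11 to 0.09 for Rnps1, and with LEV at 6 h from -0.04 to 0.91 for Upf3b. At SE 2 days it ran from -0.3 to 0.25 for Casc3, -0.42 to 0.19 for Upf3b and -0.06 to 0.12 for Rnps1. With LEV at 2 days it ran from -0.23 to 0.18 for Eif4a3, -0.26 to 0.14 for Casc3 and -0.18 to 0.0 for Rnps1. For SE + LEV 6 h against pre-SE it ran from -0.14 to 0.36 for Rbm8a, -0.22 to 0.02 for Eif4a3, -0.24 to 0.3 for Casc3 and -0.38 to 0.56 for Upf3b. For SE + LEV 2 days against pre-SE it ran from -0.36 to 0.19 for Casc3, -0.1 to 0.51 for Upf3b, -0.14 to 0.02 for Rnps1 and -0.23 to 0.23 for Zfp184. From SE 6 h to SE 2 days it ran from -0.14 to 0.13 for Rbm8a, -0.02 to 0.48 for Upf3b and -0.06 to 0.14 for Rnps1, and for the LEV effect between times from -0.58 to 0.36 for Upf3b. The cause of these changes was not tested.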

Other observations

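Hist1h2ah, a replication-dependent histone gene that lies 74334 bases from Zfp184, measured 60.46 and 105.36 CPM at SE 2 days and 152.3 and 36.51 at SE + LEV 2 days, against 4.17 and 8.06 before SE.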
